A study of Homo sapiens with 6 samples.

Results

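USP39 binding sites that lie in no annotated gene were examined in wild-type HEK293T cells, a standard cell line derived from human embryonic kidney. They were all sites of the merged list whose central base fell within no gene of any biotype in a RefSeq gene table of GRCh38.p14, and they numbered 689 of 34781 sites (1.98%, 95% Wilson interval 1.84% to 2.13%). The other 34092 sites lay inside a gene. Each site was 5 nt wide, and 365 of the 689 were on the plus strand and 324 on the minus strand. The sites came from iCLIP2, an assay in which UV light joins a protein to RNA and the joined places are read from cDNA ends. An antibody against USP39 pulled down the complexes, and each of 3 replicates gave 2 libraries, from a low and from a high part of the membrane, making 6 irradiated libraries; which of them were merged is not stated in the labels. The list is merged, so no value belongs to a single library, the depth behind a site is unknown, and no value below has a replicate error or a test between samples. A non-irradiated control was not analysed here, and no RNA abundance was measured, so no site is shown to exceed background, and the cell line could not be checked against marker expression.

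USP39 works in splicing as part of the tri-snRNP of U4, U6 and U5 snRNA, which enters the spliceosome while it is being assembled. RNA outside annotated genes can come from several known sources. RNA polymerase II continues past the polyadenylation site before it is released, and transcription that runs far past a gene end is called readthrough. Many promoters also fire in the opposite direction and give short-lived upstream antisense RNA. Transcripts of most tRNA genes, made by RNA polymerase III, begin a few bases before the mature RNA and carry a leader that is cut off.

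The sites outside genes fell mainly in 2 places, directly in front of gene starts and past gene ends, both on the strand of the gene. Each site was assigned to the nearest of 5896 genes that had at least 1 site inside, and the strand of a gene came from RefSeq where the promoter table gave it (4269 genes) and otherwise from the strand with most of its own sites (1623 genes). Within 10000 nt of such a gene, 269 sites lay before the start on the gene's strand (39.0%, Wilson interval 35.5% to 42.7%) and 178 lay past the end on the gene's strand (25.8%, interval 22.7% to 29.2%). On the opposite strand, 34 sites lay before a start (4.93%, interval 3.55% to 6.82%), the position of upstream antisense RNA, and 34 lay past an end. The remaining 174 sites (25.3%) were farther than 10000 nt from any gene with a site. These intervals cover counting error only and treat sites as independent, which sites of a cluster are not. The strand of the 1623 genes rests on the sites themselves, so contrasts between strands can lean towards the gene's strand.

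Among these classes, the group with most sites stood at the very start of genes. Of the 269 sites before a start on the gene's strand, 206 (76.6%) were centred within 10 nt of it, in front of 204 genes; that is 29.9% of all sites outside genes (Wilson interval 26.6% to 33.4%). On the opposite strand 1 site lay that close to a start, and past gene ends 2 sites did, both on the gene's strand. The commonest distance was 2 nt, with 115 sites, followed by 1 nt with 41 sites. A site centred 2 nt before the start reaches the first base of the gene with its last base, so these sites are outside genes by their centre only; when a site touching a gene with any base was counted as inside, 527 sites remained outside in place of 689. How the crosslinked base was placed within a site is not stated in the labels either, and a placement 2 nt farther along the RNA would put the 156 sites at 1 or 2 nt inside their genes. The class within 10 nt of a start was set after the distances were seen.

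The sequences around these sites are shown because they place the site against the first transcribed base. They are from the RefSeq promoter table (GRCh38.p14), written on the strand of the gene, and capitals mark the 5 nt of the site. The first base of the gene is the last capital where the centre is 2 nt before the start. In TARDBP, where it is 1 nt before, the first base is the fourth capital.
RPS27 (chr1:153990748-153990777, plus strand): tttccgctttCGCTCctttccggcggtgac
RPS19 (chr19:41860241-41860270, plus strand): gaaaccccgtCGTTCcctttcccctggctg
RPL35 (chr9:124861942-124861971, minus strand): gccccgcctaCTTCCtctttccctcggagc
EEF2 (chr19:3985448-3985477, minus strand): ttgacgtcagCGTTCtcttccgccgtcgtc
TPT1 (chr13:45341168-45341197, minus strand): gcggctgagtCGGCCttttccgcccgctcc
TARDBP (chr1:11012641-11012670, plus strand): cggccctagcGCCATtttgtgggagcgaag
CTNNB1 (chr3:41199491-41199520, plus strand): tgcggcgccaTTTTAagcctctcggtctgt
DDX17 (chr22:38506296-38506325, minus strand): actcagcggcGGCCGccattttgtgcagtc
ACTG1 (chr17:81512784-81512813, minus strand): aggccgcggtCGGTCtcagtcgccgctgcc
NORAD (chr20:36050945-36050974, minus strand): agaactgccaAGTCAgttccggtccggcag
The first of these genes encode ribosomal proteins (RPS27, RPS19, RPL35), a translation elongation factor (EEF2) and the growth-related protein TPT1, and in each of them the gene opens with a run of C and T. TARDBP and DDX17 encode RNA-binding proteins, CTNNB1 encodes beta-catenin, ACTG1 a cytoplasmic actin, and NORAD is a lncRNA; none of these 5 opens with a run of 5 pyrimidines.

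A run of C and T at the first bases is the terminal oligopyrimidine (TOP) feature of mRNAs for the translation machinery. Of 101 protein-coding genes with a promoter window and a site centred 1 or 2 nt before the start, 39 had only C or T in their first 5 bases (38.6%, Wilson interval 29.7% to 48.4%). The share was 4.85% over all 13820 protein-coding genes with a window and 7.27% over the 3451 of them with a site inside. Among the 101 genes, 26 of 27 ribosomal protein genes and 13 of the other 74 had it. Of the 36 ribosomal protein genes with a window and a site inside but none at 1 or 2 nt before the start, 17 had it (47.2%, interval 32.0% to 63.0%).

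The letters of the sites at starts differed from those of sites a little farther in. At 106 sites centred 1 or 2 nt before a start, the central base was T in 43.4%, G in 29.2% and C in 25.5%. At 273 sites centred on bases 11 to 48 of a gene, the central base was T in 75.8%. The base after the centre was C at 51.9% of the start sites, against 12.8% of the sites inside. Over all 24885 windows, the base 2 nt before a start was T in 25.3%, and the base 1 nt before it was C in 49.8%. Shares over all windows were not taken at bases 11 to 48, so the part of position in these differences was not tested.

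Ribosomal protein genes, replication-dependent histone genes and snRNA and tRNA genes were, of the lists examined, those with the highest shares of genes with a start site. Over all 5896 genes with a site inside, 204 (3.46%, Wilson interval 3.02% to 3.96%) had a site within 10 nt of the start. Of 81 ribosomal protein genes with a site, 36 had a start site (44.4%, interval 34.1% to 55.3%), RPL34, RPL41, RPS3 and RPS24 among them. Histone genes, whose proteins package newly made DNA, had a start site in 10 of 41 (24.4%, interval 13.8% to 39.3%), with H1-4, H2AC11, H3C2 and H3C10 among them. Translation factor genes had one in 5 of 47, EEF2, EIF4A2 and EIF4G2 included, and HNRNP genes had one in 2 of 19, HNRNPA2B1 and HNRNPM. Heat shock genes had one in 1 of 29, HSPA5, and snoRNA genes in 3 of 247. Most sites just before snoRNA genes could not enter this count, since 132 same-strand sites 1 to 10 nt before a snoRNA start lay inside another gene and 3 lay outside. Neither the 12 SRSF and TRA2 genes with a site nor the 56 zinc finger genes with a site had any. RNA levels of these groups were not measured, and their part in the shares was not tested.

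Genes for small RNAs showed the same placement with a different distance for tRNA. Of 27 snRNA genes with a site, 11 had a start site (40.7%, interval 24.5% to 59.3%), all 1 or 2 nt before the first base. They were 6 U1 variants (RNVU1-6, RNVU1-14, RNVU1-15, RNVU1-27, RNVU1-28 and RNVU1-31), the U5 genes RNU5A-1, RNU5B-1 and RNU5D-1, RNU6-9 and RNU12 of the minor spliceosome. Of 182 tRNA genes with a site, 34 had a start site (18.7%, interval 13.7% to 24.97%), and 27 of these 34 sites were centred 5 to 10 nt before the mature RNA, as in TRK-TTT3-1 (7 nt) and TRA-TGC3-1 (8 nt). The other 7, among them TRK-CTT1-1 and TRK-CTT2-1, were at 1 or 2 nt. The median distance was 6 nt in tRNA genes, 2 nt in protein-coding genes and 1 nt in snRNA genes. The strand of these small genes came from their own sites, and U1, U5, U6 and tRNA genes have near-identical copies, so the copy that gave a site is uncertain.

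**Figure D1:**
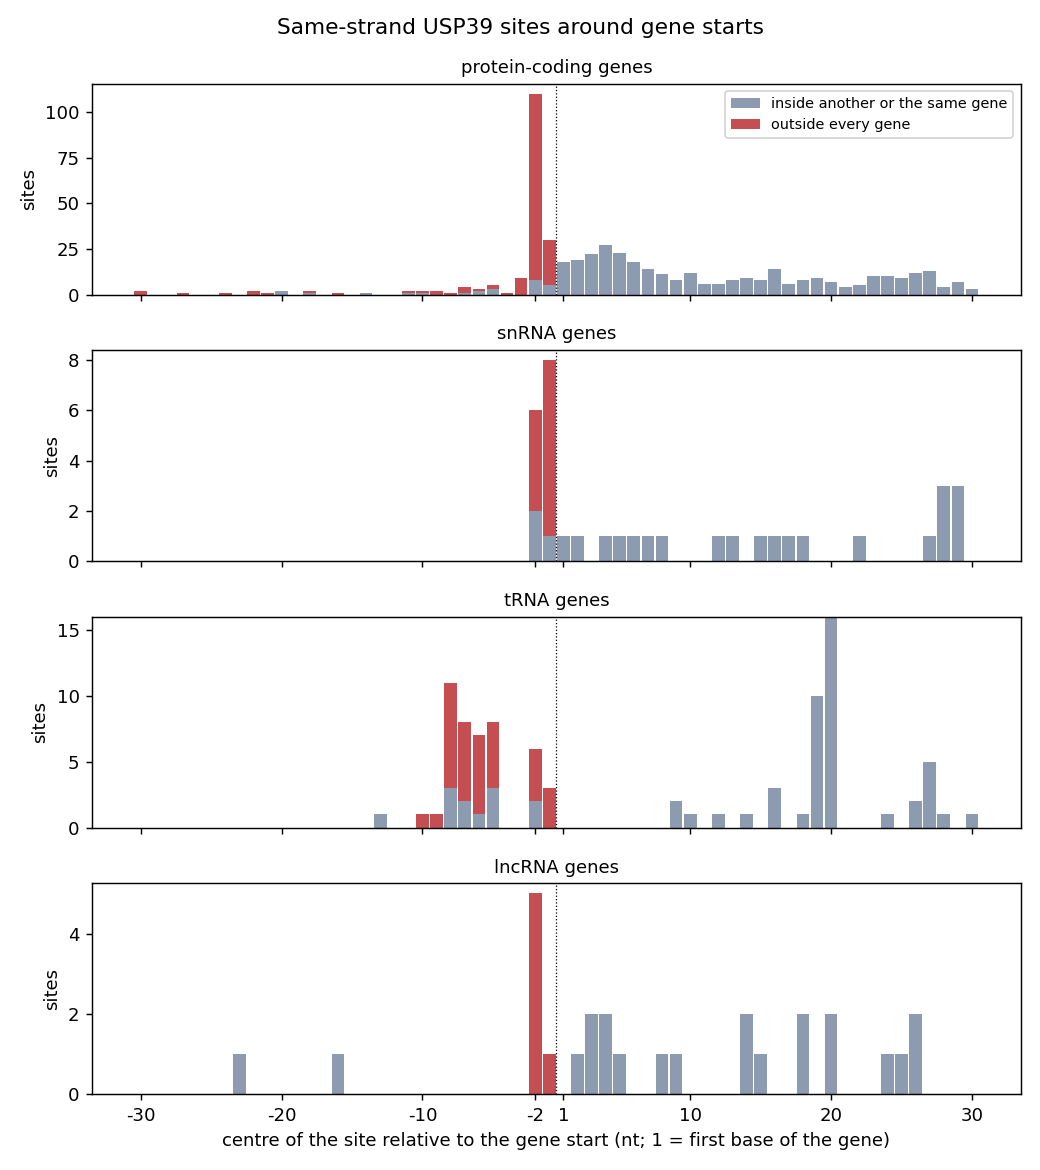
Number of same-strand sites of the whole list by the position of their centre relative to the nearest same-strand gene start (nt), for protein-coding, snRNA, tRNA and lncRNA genes; red bars are sites outside every gene and grey bars are sites inside a gene. Protein-coding genes peak 2 nt before the start with 110 sites, while the red tRNA bars, the sites outside genes, stand mostly 5 to 10 nt before the start.

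The same peak stood in the whole list, where sites inside genes were counted as well. There, 110 sites on the gene's strand were centred 2 nt before the nearest protein-coding gene start (102 of them outside every gene) and 30 were centred 1 nt before it. Within the first 50 bases of these genes the highest count at any base was 27, at base 4, and the median was 9. From 50 to 11 nt before the start there were 18 sites in all. For genes of every class, 401 same-strand sites lay 1 to 10 nt before a start, against 7 on the opposite strand. Genes without a RefSeq strand, most small RNA genes among them, took the strand of most of their own sites, so this contrast is partly built in. Of the 401 sites, 209 were outside every gene and 192 inside another gene. Protein-coding genes had 147 of the 209 and 20 of the 192. The plot of sites around gene starts shows protein-coding, snRNA, tRNA and lncRNA genes. Genes of other classes, which are not drawn, held 158 of the 192 sites inside another gene. For tRNA genes the highest count drawn was not before the start but at base 20 of the gene, with 16 sites. Past the drawn range the count was higher still, with 27 sites at base 34.

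Past gene ends the sites spread over kilobases. The 178 sites on the gene's strand within 10000 nt lay past 74 genes, 53 of them protein coding, at a median distance of 1508 nt, and 77 of them (43.3%) were within 1000 nt. Of the 74 genes, 47 had 1 such site, and 8 genes had 5 or more, with 78 sites between them. The 3 genes with most, WDR4, HNRNPU and ZNF460, held 47 sites (26.4%), and without their sites the share of sites past an end was 20.4% of those left in place of 25.8%. The genes with a site past the end had a median of 4.5 sites inside, and all genes with a site had a median of 3.

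Per length of sequence outside genes, the strand of the gene was favoured near both ends. The strand of 1623 genes came from their own sites, which can lean this contrast towards the gene's strand. Within 1000 nt past gene ends there were 22.2 sites per Mb on the gene's strand and 1.15 on the opposite strand. The density on the gene's strand was 8.05 per Mb from 1001 to 2000 nt, 6.36 from 2001 to 5000 nt and 3.10 from 5001 to 10000 nt, and then 0.197 from 10001 to 20000 nt. Within 1000 nt before starts it was 80.5 per Mb on the gene's strand, of which the 34 sites beyond the first 10 nt made 11.4 per Mb, and 3.02 on the opposite strand. Between 2001 and 5000 nt before starts the order of the strands turned, with 1.28 on the gene's strand and 2.27 on the opposite strand, from 9 and 16 sites. From 10001 to 20000 nt the opposite strand was again higher, with 0.592 against 0.197 past ends and 0.308 against 0.185 before starts. Those densities rest on 3 to 9 sites each. From 20001 to 50000 nt all 4 densities were under 0.3 per Mb. ZNF460 alone gave 15 of the sites from 2001 to 10000 nt past ends on the gene's strand.

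**Figure D2:**
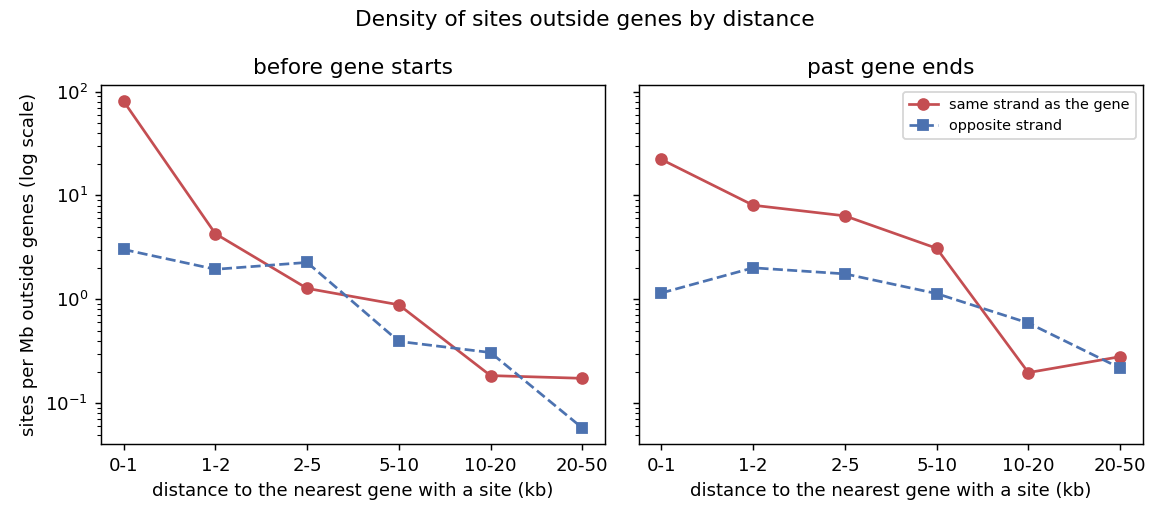
Sites per Mb of sequence outside every gene (log scale) by distance to the nearest gene with a site (kb), before gene starts on the left and past gene ends on the right; red circles are sites on the gene's strand and blue squares those on the opposite strand. On the gene's strand the density past ends falls from 22.2 per Mb in the first kb to 0.197 at 10 to 20 kb.

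HNRNPU, an abundant nuclear RNA-binding protein, had, of the 12 genes followed past their end, the run with most sites. Its gene ends at position 244850297 of chromosome 1 on the minus strand and held 95 sites. A cluster of 24 sites followed from 244850250 down to 244846715, starting 47 nt past the end. The sites then went on inside COX20, an assembly factor of cytochrome c oxidase that is annotated on the plus strand. All 41 sites within COX20 were on the minus strand, and 0 were on its own strand. With steps of at most 5000 nt, the run past HNRNPU had 66 sites, 25 of them outside genes, and reached 12842 nt. Because COX20 counted as a gene with sites, 9 of the 25 were nearest to it and stood among those past a gene end on the opposite strand.

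RBM15, a subunit of the m6A methyltransferase complex, had a similar neighbour. Its gene ends at 110346677 on chromosome 1, plus strand, and had 18 sites. Past it lay a cluster of 5 sites from 362 to 1059 nt and a cluster of 8 sites between 110355921 and 110357007. Plus-strand sites then continued inside SLC16A4, a member of the monocarboxylate transporter family on the minus strand, with 19 sites, all opposite to that gene. Between the end of RBM15 and the start of SLC16A4, which is its far side from RBM15, there were 35 plus-strand sites, 16 of them outside genes, over 26220 nt, with a largest gap of 5633 nt. COX20 and SLC16A4 together were the nearest gene of 19 of the 34 sites past an end on the opposite strand, and when only genes with a site on their own strand were counted, an alternative chosen after seeing the data, that class fell from 4.93% to 1.60% of sites.

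WDR4, a subunit of the tRNA guanine methyltransferase, had 30 sites inside and 16 past its end, from 106 to 7172 nt, on the minus strand of chromosome 21. A cluster of 13 of them covered 42838280 to 42842988. ZNF460, a zinc finger gene with 10 sites inside, had 15 past its end on chromosome 19, and the nearest was 3254 nt away, so the first 3 kb past this gene held none. The farthest was at 9859 nt. CRYBB2P1, a crystallin pseudogene on chromosome 22, had 8 sites past its end and 2 inside, and its run in steps of at most 5000 nt went on to 14827 nt, farther than that of HNRNPU, with 17 sites, 12 of them outside genes. The last 5 sites, from 12697 nt on, lay inside LOC124905094, a lncRNA gene on the same strand. The last site outside genes was at 8869 nt, and 4 of the 12 were counted before the start of LOC124905094. C19orf48P, a transcribed pseudogene with 11 sites inside, had 6 between 7 and 1587 nt past its end. POMK, a protein O-mannose kinase gene, had 5. MRPL14, UPK3BL1 and MIR17HG, the host of the miR-17-92 cluster, had 4 each, those of MIR17HG lying between 955 and 4277 nt.

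**Figure D3:**
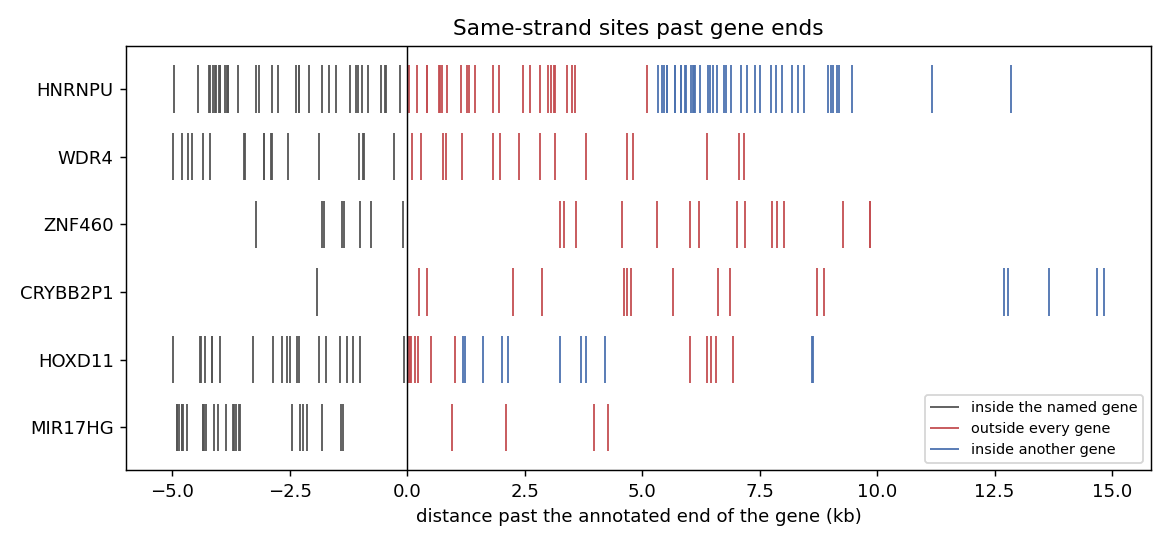
Same-strand sites from 5 kb inside to 15 kb past the annotated end of 6 genes (x axis in kb, zero at the gene end); each line is a site, dark grey inside the named gene, red outside every gene and blue inside another gene, followed past the end in steps of at most 5000 nt. HNRNPU sites run on into COX20, and the first site past ZNF460 is 3254 nt away.

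Among the lists of genes, the HNRNP genes had a site past the end in 3 of 19 (HNRNPU with 16 nearest to it, HNRNPC and HNRNPR with 1 each), against 74 of 5896 genes over all (1.26%). Of the 81 ribosomal protein genes RPL9 had 1 site past its end, at 822 nt, although 36 of these genes had a start site. The zinc finger genes had sites past the end in 2 of 56, ZNF460 and ZNF589, and the translation factor list in 1 of 47, EIF4EBP1, an inhibitor of translation initiation. None of the 41 histone genes with a site, 12 SRSF and TRA2 genes or 29 heat shock genes had any. Among tRNA genes 7 of 182 had one, TRG-TCC2-6 at 12 and 18 nt and TRL-CAG2-1 at 18 nt being the closest, and RNVU1-15 and RNVU1-14 had 1 each at 42 and 196 nt. Some of the 7 counted only because genes without a site inside were passed over. The site of TRN-GTT5-1, 6294 nt past its end, lay 6 nt from RNU1-1. The 2 sites of TRL-TAG2-1, at 7633 and 7659 nt, came within 7 nt of TRP-TGG1-1.

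The HOXD genes, which encode homeobox transcription factors of the posterior body and limb, had sites in the gaps between them. On chromosome 2, plus strand, 7 sites between 176115728 and 176116707 lay in the gap between HOXD11 and HOXD10, starting 49 nt past HOXD11. A further 5 between 176121707 and 176122611 lay in front of HOXD9, the nearest 108 nt from its start. HOXD11 held 23 sites inside and HOXD9 held 2. In steps of at most 5000 nt, the run past HOXD11 had 23 sites over 8629 nt, with 12 outside genes and 9 inside HOXD10.

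Other sites before a start, beyond the first 10 nt, were few and scattered. There were 63 within 10000 nt on the gene's strand. LINC01000, a lncRNA on chromosome 7 with 3 sites inside, had 8 of them in a cluster from 528 to 2314 nt before its start and 4 past its end. U2AF2, the subunit of U2AF that binds the polypyrimidine tract of introns, had 3 at 693 to 842 nt.

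The sites before a start on the opposite strand were few. The 34 sites lay before 14 genes. HES4, a transcriptional repressor on the minus strand of chromosome 1, had 8 plus-strand sites from 2553 to 9972 nt before its start. Those from 8904 nt on were part of a cluster of 4 sites that came within 711 nt of RPL39P12. The last site of that cluster, at 1011059, was counted 9061 nt before the start of AGRN, on the strand of AGRN. BAHCC1 had 6 from 2522 to 4911 nt. PPP6R3, a regulatory subunit of protein phosphatase 6, had 4 minus-strand sites packed between 528 and 577 nt before its start on chromosome 11. GNG13 had 5 and TSSK3 had 2, but neither gene had a site on its own strand, and with such genes left out the class was 3.34% of sites in place of 4.93%.

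Joining same-strand sites within 1000 nt gave 470 clusters. A single site made up 390 of them, 65 had 2 to 4 sites, and 15 had 5 or more. Those 15 spanned 350 to 4895 nt and held 144 sites (20.9%). With same-strand sites inside genes considered as well, 221 clusters (47.02%) lay within 1000 nt of such a site or were joined to it through others. The median distance from a site outside genes to the next same-strand site of the list was 136 nt, and it was 119 nt for sites inside genes. A neighbour within 50 nt was found for 32.9% of the sites outside genes and 35.4% of those inside.

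The cluster with most sites was far from any gene with sites. It held 30 sites on the plus strand of chromosome 21 between 8988742 and 8993636, and 2 more sites followed to 8994703. Its nearest annotated genes were the miRNA genes MIR10396A, 1077 nt before the first site, and MIR3648-2, and neither had a site. In the annotated ribosomal DNA unit RNA45SN2, MIR3648-1 lies in front of the 18S RNA. That unit codes for the 18S, RNA5-8S and 28S rRNAs in 1 precursor. Moved by the distance between the MIR3648 copies, the 18S stretch would begin at 8988157, and moved by the MIR10396 copies (with RNA18SN1) it would begin at 8988169, a difference of 12 nt. Of the 32 sites, 11 fell in the projected 18S stretch, 10 between 18S and RNA5-8S, 0 in RNA5-8S, 4 between RNA5-8S and 28S and 7 in 28S. Per kb this was 5.89 in 18S, 9.34 between 18S and RNA5-8S, 3.45 between RNA5-8S and 28S and 1.39 in 28S. The projection assumes the spacing of another copy, no sequence of this region was used, and reads of repeated rDNA copies can be placed on any of them. The 4 annotated RNA45SN genes with a position held 8 sites in all. Chromosome 21 carried 7.26% of the sites outside genes and 1.51% of all sites, and 32 of its 50 sites outside genes were these.

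**Figure D4:**
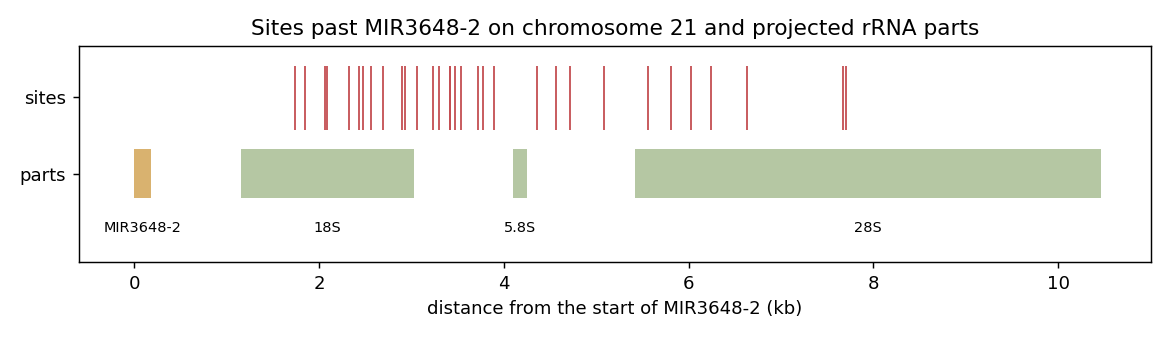
The 32 plus-strand sites past MIR3648-2 on chromosome 21 (red lines) by distance from the start of MIR3648-2 (kb), over the 18S, RNA5-8S and 28S stretches projected from the annotated unit RNA45SN2 (green). Sites lie in the projected 18S, in the spacers and the front part of 28S.

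Mitochondrial DNA held 19 sites, 4 of them outside genes. All 4 were on the minus strand of the control region, centred on positions 59, 287, 296 and 304 of chromosome M, the last 3 close together. The control region holds the promoters of both mitochondrial strands, and RNA from the light-strand promoter runs through it in this direction. By distance these 4 sites were counted among the 178 past a gene end, 2926 to 3171 nt past TRNL1, 1 of the 7 tRNA genes with such sites, whose minus strand here rests on its single site.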

How the data were processed

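The labels describe 6 libraries, 3 from a low and 3 from a high membrane region. Per the submitters' processing notes, UMI-tools 1.1.2, STAR 2.7.3a, bedtools 2.29.2, FastQC 0.11.9 and SAMtools 1.10 were used with GRCh38.p12, without role or order. How sites were called and filtered, and which libraries were merged, is not stated in the labels. The score that the authors deposited is 0 for every site, so it ranks nothing. The total count per library is unknown. Coordinates are those of the list (GRCh38), first base 1.

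Sites were compared by their central base with 59716 RefSeq genes (GRCh38.p14). In 3875 protein-coding genes with both strands known, the annotated strand was that of most sites in 94.4%. Equal distances went first to genes that are neither read-through loci nor LOC symbols, then to the gene with most sites. A cluster joined same-strand sites within 1000 nt. Densities divide by the length outside genes nearest to each gene with a site, up to 50000 nt. Promoter windows (250 bases before to 50 after the start) whose start equals that of the gene table numbered 24885. No genome sequence was used, so clusters past ends have no sequence here. Genes named are the 10 clusters and 10 genes past ends with most sites, the 5 genes with most upstream antisense sites, the 5 farthest clusters (1 is not reported here) and 2 to 4 genes per list; other genes, the printed sequences and the sites of the start class were chosen after their values were seen. Members and lists were chosen with earlier results of these data known. No test was made, since no value belongs to a library. The code for class and distance was tested on simulated data, where 100% of simulated sites near isolated genes were given their own class and distance. Crowded genes were left out and gene strands were taken as given, so this says nothing about assignments that depend on either. Software was matplotlib 3.10.9, scipy 1.17.1, pandas 2.3.3 and numpy 2.4.6 under Python 3.11.15.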

Additional observations from a re-analysis of the deposited data

How the results depend on the processing

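No paired analysis was possible because the list is merged and no value belongs to a replicate; for the same reason no replicate could be left out, and depth is unknown. Of 58 alternatives over 11 results, 37 stayed within the interval of the value reported (counts: within 1.5 times). The number of sites outside genes was 787 without LOC gene models and 934 without pseudogenes. Counting genes with at least 3 sites gave 22.2% past the end and 30.3% before the start on the gene's strand and 22.6% within 10 nt of a start, and densities within 1000 nt of 33.5 per Mb past ends, 115 before starts on the gene's strand and 5.74 on the opposite strand; protein-coding genes alone gave 65.6 before starts on the gene's strand. Counting clusters gave 17.7% past the end, 50.6% before the start, 43.0% within 10 nt of it, and 3.40% and 3.19% before starts and past ends on the opposite strand. A limit of 5000 nt gave 21.5% past the end and 3.34% past the end on the opposite strand, where a limit of 50000 nt gave 7.26% and any annotated gene 6.82%. With gene strands by the majority of sites, 3.34% lay before a start and 1.45% past an end on the opposite strand. Chosen after seeing the data, counting genes with a site on their own strand gave 3.34% and 1.60% for these, and leaving out WDR4, HNRNPU and ZNF460 gave 20.4% past the end.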

Other observations

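Some sites lay far from every gene with a site. There were 104 sites in 60 clusters more than 100000 nt away, 49 of which had a single site. Of the 174 sites beyond 10000 nt, 35 lay within 1000 nt of an annotated gene that had no site itself. The 5 farthest clusters held 1 or 2 sites each, and 4 of them are described. A pair on the plus strand of chromosome 7 began at 81333604, 3550582 nt from RSBN1L, and a single site at 145997338 of the same chromosome was 2606227 nt from ZYX. On chromosome 4 a site at 183350033 was 3237761 nt from FAT1 and a pair from 157768046 was 3217646 nt from PLRG1. A cluster of 5 plus-strand sites on chromosome X, between 109054133 and 109054482, was 227264 nt from the nearest annotated gene, the pseudogene RNU6-309P, and 317570 nt from IRS4, the nearest gene with sites.

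The last bases of genes held few sites. Over the whole list, 545 same-strand sites were centred 50 to 11 nt before a gene's last base (that base counted as the first), 8 within its last 10 bases, 5 within 10 nt past it and 40 from 11 to 50 nt past it. On the opposite strand the numbers were 46, 8, 5 and 29. Genes without a RefSeq strand, most small RNA genes among them, were oriented by their own sites. The contrast between strands is therefore partly built in. The numbers for both strands pool genes of every class. With the 545 same-strand sites split by class, the highest count at any base was 38, at base 16 from the end of tRNA genes. In protein-coding genes no base of that window held more than 7, so the 545 do not describe the ends of protein-coding genes.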
